A study of Homo sapiens with 2 samples.

Results

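Oxidative phosphorylation is carried out in the inner mitochondrial membrane. Complexes I and II pass electrons from nutrients to a lipid carrier, complex III hands them to cytochrome c, complex IV reduces oxygen with them, and complex V, the ATP synthase, uses the resulting proton gradient to make ATP. Most subunits are encoded in the nucleus, and their promoters are textbook targets of the transcription factors NRF1 and GABP. The members described here were the nuclear genes of these subunits, chosen by symbol (NDUF, SDH, UQCR, CYC1, CYCS, COX4 to COX8 and ATP5). There were 90 of them among 19719 protein-coding genes, with 38 in complex I, 4 in complex II, 10 in complex III, 17 in complex IV and 20 in complex V, besides cytochrome c itself (CYCS). NDUFC2-KCTD14 and ATP5MF-PTCD1 are readthrough records that share a 5′ end with NDUFC2 and ATP5MF, so the 90 records have 88 distinct 5′ ends.

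The study mapped PRMT6, an arginine methyltransferase, and PARP1, an ADP-ribosyltransferase, on the chromatin of MDA-MB-231, a human cell line derived from a triple-negative breast cancer, without any treatment. The 2 groups were 1 library with an antibody against PRMT6 and 1 with an antibody against PARP1, without replicates or genetic change, so no test between groups could be made. Each library yielded a list of peaks, which are stretches with more sequenced fragments than their surroundings, 9080 for PRMT6 and 11651 for PARP1. Each peak has a score from the authors' peak caller, the −log10 of a p or q value (the sources used here do not say which), and the rank and percentile given here place that score within its own list. The 95% intervals given with percentages are exact binomial ones (Clopper-Pearson). They hold counting error alone and treat genes as independent.

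The first question was whether PRMT6 and PARP1 peaks lay at the promoters of these genes, taken as 3 kb upstream to 3 kb downstream of where each record begins. A PRMT6 promoter peak was found at 22 of the 90 members (24.4%, 95% interval 16% to 34.6%), against 18.3% of all protein-coding genes. A PARP1 promoter peak was found at 24 members (26.7%, 17.9% to 37.0%), against 22.5% of all genes. Peaks of both lists were present at 13 members (14.4%, 7.92% to 23.4%), against 13.4% of all genes. Overlapping peaks were present at the same 13 members (14.4%), against 12.9% of all genes. In the whole genome, 2540 of the 2637 genes with both peaks had overlapping ones, so overlap at all 13 was ordinary. A peak of either list was present at 33 members (36.7%, 26.8% to 47.5%), against 27.3%. Each interval contained the percentage for all genes, so at this number of genes the 90 members could not be told from the genome as a whole. For a peak of either list this depended on the choice of members. Without the 8 that are tissue-restricted or close copies of another member, 32 of 82 had one (39%, 28.4% to 50.4%), an interval above the 27.3%. This difference was not tested.

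**Figure D1:**
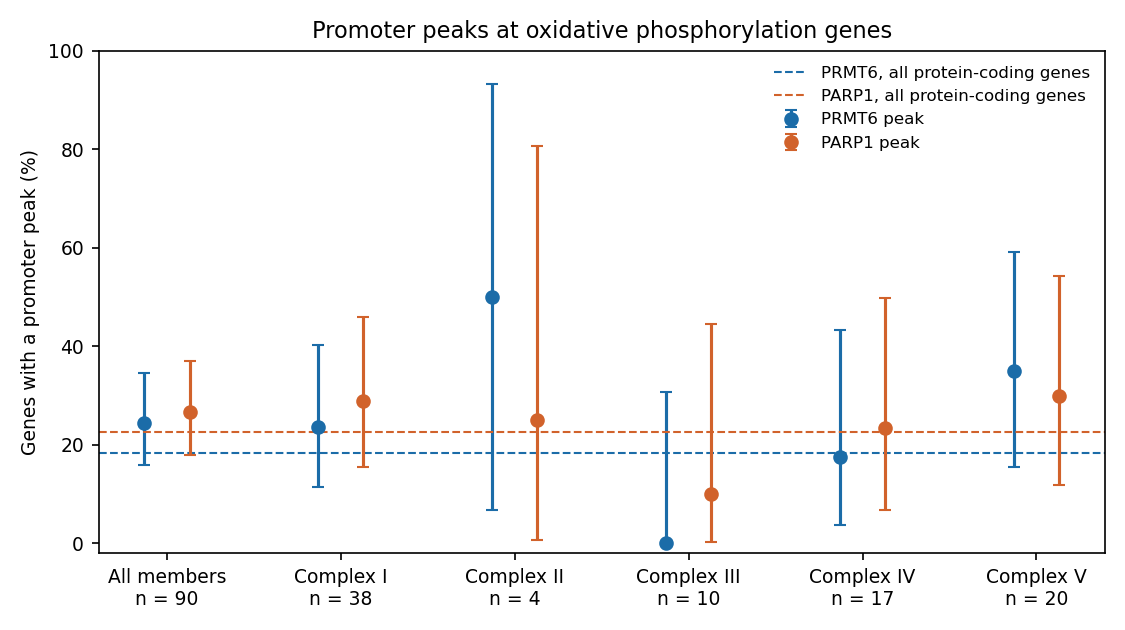
The percentage of genes with a promoter peak (vertical axis) is plotted for all members and for each complex, as points with 95% exact binomial intervals for PRMT6 (blue) and PARP1 (orange), with dashed lines at the percentages of all protein-coding genes, 18.3% and 22.5%. Every interval crosses its line, and the complex III points, 0% and 10%, are the lowest.

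The complexes gave unequal counts. Of the 38 complex I genes, 9 had a PRMT6 peak (23.7%, 11.4% to 40.2%) and 11 a PARP1 peak (28.9%, 15.4% to 45.9%). In complex V, 7 of 20 genes had a PRMT6 peak (35.0%, 15.4% to 59.2%) and 6 a PARP1 peak (30.0%, 11.9% to 54.3%). In complex IV the counts were 3 and 4 of 17. Complex III stood at the other end, with 0 of 10 genes for PRMT6, where the interval reaches 30.8%, and 1 of 10 for PARP1. These intervals overlapped between complexes, and no difference between complexes was resolved. A peak of either list was found at 36.8% of complex I, 50% of complex II (2 of 4), 10% of complex III, 29.4% of complex IV and 50% of complex V genes. Each interval contained the 27.3% of all genes. For complex V (27.2% to 72.8%) it did so only just. With promoters of 1 kb on either side this interval was unchanged, but lay above the 24.3% of all genes. In the higher-scoring 50% of each list the complex V interval was 19.1% to 63.9%, above the 18.4% of all genes. In both settings the intervals of the other complexes contained the percentage of all genes. Several complexes and settings were looked at, and none of these differences was tested.

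The promoters of the 4 members with the highest mean percentile in both lists, among those with a sequence available here, and of the 2 best with a peak of 1 list alone are shown to give the sequence next to the start site. The 250 bases before the start site are printed 5′ to 3′ in the direction of the gene, from RefSeq, build GRCh38.p14. Capitals mark the motifs searched on both strands, which were GCATGCGC for the core of an NRF1 site, CCGGAAG for the ETS factors that include GABP, AAGATGG for YY1, GGGCGG for a GC box, CCAAT for a CCAAT box, CACGTG for an E-box and TATAAA for a TATA box. The E-box reads the same on both strands, and no other motif holds another of the list.
NDUFA11, chr19:5903791-5904040, minus strand: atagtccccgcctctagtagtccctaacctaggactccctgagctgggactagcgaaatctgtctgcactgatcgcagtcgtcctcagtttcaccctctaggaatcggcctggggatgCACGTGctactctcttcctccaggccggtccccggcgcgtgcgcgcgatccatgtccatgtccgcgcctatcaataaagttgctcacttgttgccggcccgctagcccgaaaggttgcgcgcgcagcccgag
ATP5MC1, chr17:48892537-48892786, plus strand: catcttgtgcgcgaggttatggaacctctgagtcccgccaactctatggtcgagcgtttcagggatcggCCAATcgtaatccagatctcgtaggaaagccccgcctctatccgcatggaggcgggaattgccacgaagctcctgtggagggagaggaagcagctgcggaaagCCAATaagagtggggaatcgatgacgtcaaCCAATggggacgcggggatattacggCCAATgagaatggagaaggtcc
COX8A, chr11:63974370-63974619, plus strand: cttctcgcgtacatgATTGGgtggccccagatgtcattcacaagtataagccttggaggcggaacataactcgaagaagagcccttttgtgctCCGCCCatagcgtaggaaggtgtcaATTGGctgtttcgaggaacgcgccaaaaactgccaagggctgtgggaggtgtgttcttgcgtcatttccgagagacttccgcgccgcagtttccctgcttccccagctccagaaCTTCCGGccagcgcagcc
CYCS, chr7:25125261-25125510, minus strand: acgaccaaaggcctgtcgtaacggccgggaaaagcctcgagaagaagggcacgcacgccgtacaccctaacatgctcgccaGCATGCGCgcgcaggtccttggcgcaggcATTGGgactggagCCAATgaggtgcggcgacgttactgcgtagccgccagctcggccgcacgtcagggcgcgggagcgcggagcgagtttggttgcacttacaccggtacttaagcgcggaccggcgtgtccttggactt
ATP5F1E, chr20:59032336-59032585, minus strand: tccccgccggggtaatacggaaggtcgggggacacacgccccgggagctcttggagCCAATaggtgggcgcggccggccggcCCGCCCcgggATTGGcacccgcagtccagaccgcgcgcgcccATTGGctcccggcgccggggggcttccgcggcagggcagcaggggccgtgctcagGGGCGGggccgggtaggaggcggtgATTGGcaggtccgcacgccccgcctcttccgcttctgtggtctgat
ATP5IF1, chr1:28235874-28236123, plus strand: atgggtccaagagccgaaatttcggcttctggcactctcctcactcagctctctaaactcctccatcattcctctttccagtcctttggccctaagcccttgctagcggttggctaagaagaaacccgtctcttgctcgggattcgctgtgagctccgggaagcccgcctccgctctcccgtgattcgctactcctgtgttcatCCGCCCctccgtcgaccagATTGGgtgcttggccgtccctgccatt
The CYCS promoter holds an NRF1 core motif whose first base lies 169 bases before the start, and the ATP5MC1 promoter holds 4 copies of CCAAT, the nearest starting 22 bases before it. The stretch shown for NDUFA11 holds an E-box alone and lies almost wholly between the start and its peaks, outside the PRMT6 peak and sharing only its far end with the PARP1 peak. The COX8A promoter holds the ETS motif on the opposite strand, at 18 bases.

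Complex I, which oxidises NADH, held the best-scoring peak of the whole group. NDUFA11, an accessory subunit of the membrane arm (gene 126328, chromosome 19, 5891229 to 5903790, minus strand), had a PRMT6 peak from 5904059 to 5904923 with a score of 53.92, rank 2 of 9080. Its PARP1 peak ran from 5904029 to 5904834 with a score of 29.40, rank 64 of 11651. The peaks lay 269 bp and 239 bp upstream of the 5′ end and did not reach it. Their centres were nearer to the 5′ end of VMAC, a coiled-coil protein gene, at 381 bp and 440.5 bp, and the PRMT6 peak ended inside the VMAC record. The peaks therefore cannot be assigned to NDUFA11 alone.

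At NDUFA6 (gene 4700, chromosome 22, minus strand), an accessory subunit, both peaks spanned the 5′ end at 42090772. For PRMT6 the peak (42090687 to 42091051) scored 8.75, rank 1504. For PARP1 it (42090652 to 42091044) scored 14.35, rank 781. Both also overlapped the divergent noncoding gene NDUFA6-DT. At NDUFS8 (gene 4728, chromosome 11, plus strand), a core subunit that carries iron-sulfur clusters, PRMT6 had 2 peaks. The better-scoring (68027948 to 68028292, rank 2120) ended 2389 bp upstream, and the other (68030421 to 68030826, rank 5711) spanned the 5′ end. The PARP1 peak at NDUFS8 (68030443 to 68030678, rank 3190) ended 3 bp short of the 5′ end and overlapped the second of these. At NDUFC1 (gene 4717, chromosome 4, minus strand), a small membrane subunit, the PRMT6 peak of rank 3023 (139301272 to 139301639) lay 912 bp inside the gene, and a PARP1 peak of rank 2735 (139301238 to 139301536) lay 1015 bp inside it. Their centres were 49.5 bp and 118 bp from the 5′ end of NAA15, an acetyltransferase subunit gene. The lists thus had overlapping peaks at these 4 genes, but at NDUFA11 and NDUFC1 the nearest start belonged to a neighbor.

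NDUFA2 and NDUFA3 completed the complex I genes with both peaks. The lists ranked NDUFA2 (chromosome 5, 140645285 to 140647630) very differently, with percentile 93.3 for PRMT6 (140647478 to 140647940, rank 606) and 31.2 for PARP1 (140647599 to 140647852, rank 7982), although both peaks crossed its 5′ end. NDUFA3 (chromosome 19, 54102855 to 54107568) went the other way, with percentile 19.2 for PRMT6 and 55.7 for PARP1. A PRMT6 peak without a PARP1 peak was found at NDUFV1, the core subunit that binds NADH (67606701 to 67606989 on chromosome 11, rank 3373), at NDUFS1, the largest iron-sulfur core subunit (percentile 32.1), and at NDUFAB1, the mitochondrial acyl carrier protein (percentile 19.2). All 3 of these peaks had exactly the smallest width of the PRMT6 list, 288 bp, which 53.1% of its peaks share. A PARP1 peak without a PRMT6 peak was found at the accessory subunit genes NDUFA7, NDUFA9, NDUFB3, NDUFB7 and NDUFV3, with percentiles from 5.7 (NDUFA9) to 33.3 (NDUFB3). NDUFB7 had 2 of them, at 14572025 to 14572281 across its 5′ end and at 14574247 to 14574447 upstream on chromosome 19. The remaining 24 complex I records had no promoter peak, among them NDUFA1, NDUFA5, NDUFA8, NDUFA10, NDUFA12, NDUFA13, NDUFB1, NDUFB2, NDUFB4, NDUFB5, NDUFB6, NDUFB8, NDUFB9, NDUFB10, NDUFB11, NDUFC2 with its readthrough record, NDUFS3, NDUFS4, NDUFS5, NDUFS6, NDUFS7 and NDUFV2.

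Complex II, succinate dehydrogenase, has 4 subunits. SDHB, its iron-sulfur subunit (gene 6390, chromosome 1, 17018722 to 17054032, minus strand), had nearly coinciding peaks over its 5′ end, from 17054010 to 17054333 for PRMT6 (score 6.76, rank 2783) and from 17054009 to 17054319 for PARP1 (score 11.39, rank 1465). SDHC, a membrane anchor, had a PRMT6 peak of the smallest width (161314858 to 161315146, rank 5718) that began 477 bp downstream of its 5′ end. SDHA, the flavoprotein, and SDHD, the other anchor, had none. The nearest PARP1 peak to SDHD was 3792 bp away, just beyond the promoter limit.

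In complex III the PARP1 peak at UQCRC1, a core protein (gene 7384, chromosome 3, 48599002 to 48609646, minus strand), was the only promoter peak. It crossed the 5′ end, from 48609549 to 48609795, and scored 6.94 (rank 4829). CYC1 (cytochrome c1), UQCRFS1 (the Rieske iron-sulfur protein), UQCRC2, UQCRB, UQCRH, UQCRHL, UQCRQ, UQCR10 and UQCR11 had none. The nearest peaks to CYC1 lay 9100 bp (PRMT6) and 9114 bp (PARP1) away. CYCS, the cytochrome c that shuttles electrons from complex III to complex IV (gene 54205, chromosome 7, 25118656 to 25125260, minus strand), differed from these in having both peaks. For PRMT6 the peak of rank 1420 (25125165 to 25125812) crossed the 5′ end. The PARP1 peak (25125286 to 25125724) ended 26 bp upstream of it and ranked 706 with a score of 14.88. The CYCS stretch printed with the promoters lies under both peaks for most of its length.

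In complex IV, cytochrome c oxidase, COX8A stood highest. This gene of a small subunit (gene 1351, chromosome 11, 63974620 to 63976543, plus strand) had a PRMT6 peak from 63974282 to 63974636 (score 11.77, rank 722) and a PARP1 peak from 63974273 to 63974636 (score 27.41, rank 77). The peaks ended at the same base, 16 bp past the 5′ end. COX5B had a PRMT6 peak across its 5′ end (97645804 to 97646175 on chromosome 2, score 7.59, rank 2121) and a PARP1 peak that ended 65 bp upstream (97645785 to 97645997, score 7.06, rank 4743). COX5A had a PARP1 peak alone (74937909 to 74938452 on chromosome 15, score 8.92, rank 2735), as did COX6A1 (rank 5138). COX6A2, the heart and muscle counterpart of COX6A1, had a PRMT6 peak of the smallest width alone (rank 5718). The other 12 genes had no peak, including the widely expressed COX4I1, COX6B1, COX6C, COX7A2, COX7A2L, COX7B and COX7C and the tissue-restricted COX4I2, COX6B2, COX7A1, COX7B2 and COX8C. Counting all 8 members that are tissue-restricted or close copies of another member, with COX6A2, UQCRHL and ATP5MGL among them, 1 had a PRMT6 peak and 0 had a PARP1 peak, against 18.3% and 22.5% of all genes. Both percentages lie inside the intervals of these counts.

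In complex V the catalytic β subunit and 1 gene of the membrane ring had peaks near the top of both lists. At ATP5F1B, the β subunit (gene 506, chromosome 12, 56638175 to 56645984, minus strand), PRMT6 had a peak of score 19.61 (56645903 to 56646330, rank 136) and PARP1 had a peak of score 20.27 (56645981 to 56646337, rank 251). Both spanned the 5′ end. At ATP5MC1 (gene 516, chromosome 17, 48892787 to 48895871, plus strand) PRMT6 had a peak of score 23.09 (48892395 to 48892866, rank 92) and PARP1 had a peak of score 18.93 (48892277 to 48892804, rank 319), again across the 5′ end. ATP5MC1, ATP5MC2 and ATP5MC3 encode the same mature ring subunit c, and by the 5′ end of their records ATP5MC2 and ATP5MC3 had no promoter peak. RefSeq lists further start sites for ATP5MC2 on chromosome 12, however, at 53676330 (5093 bp from the 5′ end of the record) and 53676083. A PRMT6 peak (53676090 to 53676378, rank 4689) spanned the former and a PARP1 peak (53676019 to 53676311, rank 5487) the latter. These sites were looked up after the data were seen.

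Among the genes of the peripheral stalk, which holds the catalytic head still, ATP5PB (gene 515, chromosome 1, plus strand, 5′ end at 111449464) had both, a PRMT6 peak of score 5.10 (111449184 to 111449472, rank 5468) and a PARP1 peak of score 6.35 (111449145 to 111449552, rank 6014). Both crossed the 5′ end, and their centres were nearer to WDR77, at 72 bp and 92.5 bp. ATP5PD had a PRMT6 peak alone (percentile 38.2), and ATP5PF and ATP5PO had PARP1 peaks alone. The best of the 2 ATP5PF peaks (25734863 to 25735314 on chromosome 21, score 7.32, rank 4365) lay 339 bp inside the gene and was nearest to the 5′ end of GABPA, the DNA-binding subunit of GABP. Among peaks of PRMT6 alone, ATP5F1E, the ε subunit, scored best (59032353 to 59032692 on chromosome 20, score 9.03, rank 1396, 18 bp upstream of the 5′ end). It was followed by ATP5IF1, the inhibitor of ATP hydrolysis (28235944 to 28236301 on chromosome 1, score 8.42, rank 1656, across the 5′ end). ATP5ME, a small membrane subunit, had a PRMT6 peak alone at percentile 56.0. ATP5MK had a PARP1 peak alone (103396451 to 103396708 on chromosome 10, score 8.10, rank 3516) that was nearer to PDCD11. The 10 records without a peak were ATP5F1A, ATP5F1C, ATP5F1D, ATP5MC2, ATP5MC3, ATP5MF and its readthrough record, ATP5MG, ATP5MGL and ATP5MJ.

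**Figure D2:**
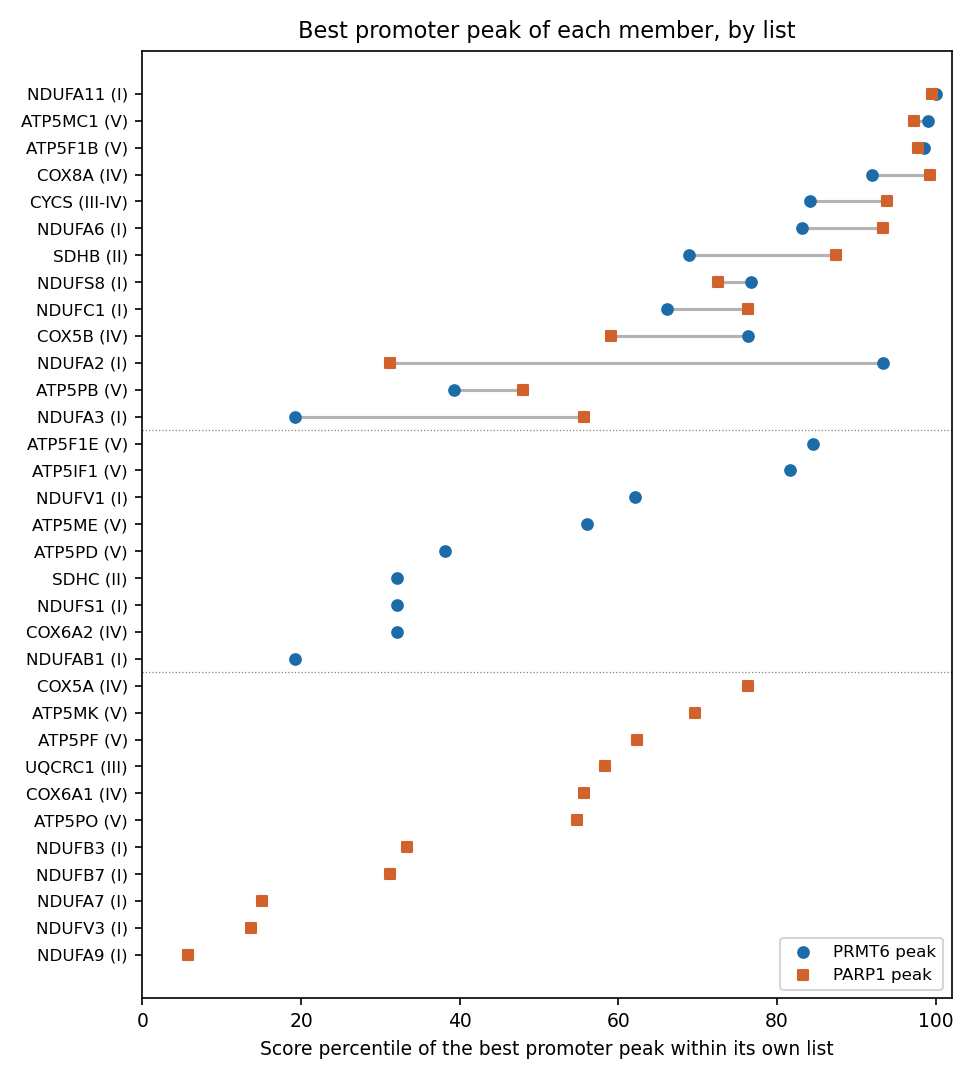
The percentile of each member's best promoter peak within its own list (horizontal axis, 100 is the best score) is shown for the 33 members with a peak, as blue circles for PRMT6 and orange squares for PARP1, with complexes in brackets. Grey lines join the peaks of 1 gene, and dotted lines separate genes with both peaks, with PRMT6 alone and with PARP1 alone. NDUFA11, ATP5MC1, ATP5F1B and COX8A are above percentile 90 in both lists, while NDUFA2 shows the widest gap, 93.3 against 31.2.

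Over all members with a peak, the best PRMT6 peak had a median percentile of 72.6, against 71.8 for all genes with a PRMT6 promoter peak, and the best PARP1 peak one of 60.7, against 62.1. The highest-scoring 10% of the list held the best PRMT6 peak of 5 of 22 members (22.7%, 7.82% to 45.4%), against 19.8% of all genes with a promoter peak, and the best PARP1 peak of 6 of 24 members (25.0%, 9.77% to 46.7%), against 14.9%. Among the 13 members with both peaks, the percentile was higher for PRMT6 at 6 and for PARP1 at 7. These 13 made up 59.1% of the members with a PRMT6 peak (36.4% to 79.3%) and 54.2% of those with a PARP1 peak (32.8% to 74.4%). For all genes the shares were 73.2% and 59.5%, which lie inside these intervals.

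The peaks sat close to the 5′ end. The best PRMT6 peak spanned it at 16 of 22 members (72.7%, 49.8% to 89.3%), against 55.2% of all genes with a promoter peak, and the best PARP1 peak at 15 of 24 (62.5%, 40.6% to 81.2%), against 44.7%. Peak centres lay a median of 94 bp upstream for PRMT6 and 118 bp upstream for PARP1. The peaks farthest out but still inside the promoter limit were the PRMT6 peak 2389 bp from NDUFS8 and a PARP1 peak 2181 bp from NDUFB7. Those nearest outside it were 3693 bp from NDUFB8 for PRMT6 and 3670 bp from COX6B1 for PARP1. Members without a promoter peak of a list were usually far from any peak of that same list. The median distance was 43422 bp for the 68 without a PRMT6 peak and 42904 bp for the 66 without a PARP1 peak. The same distance for all genes is not given here.

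**Figure D3:**
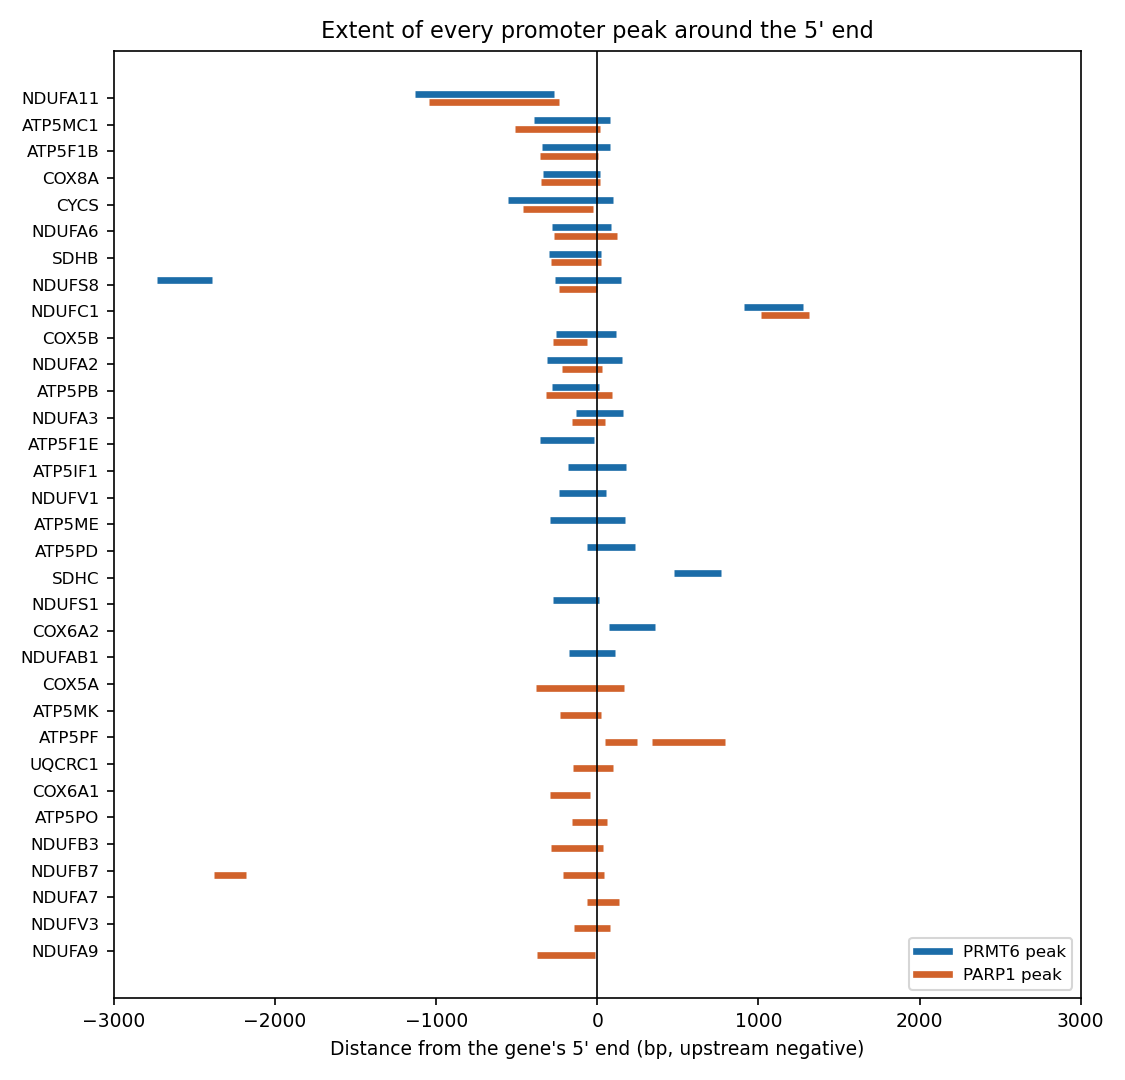
Every promoter peak of the 33 members is drawn as a bar at its distance from the 5′ end of the gene (horizontal axis in bp, upstream negative, 3 kb on either side), blue for PRMT6 and orange for PARP1. Most bars cross the line at 0, and the peaks of NDUFA11 and NDUFC1 are displaced to the side of a neighboring gene.

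Many members share a promoter region with a neighbor. At 27 of the 90, the 5′ end of another protein-coding gene on the opposite strand lay within 1 kb. In the genome as a whole such bidirectional promoters had PRMT6 peaks more often than the others, at 946 of 2694 genes (35.1%) against 2654 of 17025 (15.6%). Among the members a PRMT6 peak was present at 4 of the 27 (14.8%, 4.19% to 33.7%), which were NDUFA2 beside IK, NDUFS1 beside EEF1B2, ATP5ME beside MYL5 and ATP5PB beside WDR77, and at 18 of the 63 others (28.6%, 17.9% to 41.3%). For PARP1 the values were 8 of 27 (29.6%, 13.8% to 50.2%) and 16 of 63 (25.4%, 15.3% to 37.9%), against 44.5% and 19.0% of all genes. NDUFA2 and ATP5PB alone among the 27 had both peaks (2 genes, 7.41%, 0.91% to 24.3%), against 28.0% of all genes with such a promoter. The intervals of the PRMT6 and of the joint percentage lay below the values for all genes of that arrangement, but this depended on the distance chosen. The opposite-strand starts nearest to NDUFA11 and NDUFC1, which have both peaks, lie 1082 bp and 1046 bp away, just beyond the limit. With starts up to 2 kb away, an alternative added after the data were seen, 6 of 30 members had a PRMT6 peak (20.0%, 7.71% to 38.6%, against 34.7% of all such genes) and 4 had both (13.3%, 3.76% to 30.7%, against 27.8%), so both intervals contained the value for all genes. With a limit of 500 bp the PRMT6 interval (4.54% to 36.1%) contained the 35.0% of all such genes, and the joint interval (0.984% to 26%) lay below their 27.2%. At the 63 members without such a neighbor, the PRMT6 interval lay above the 15.6% of all such genes, while the PARP1 interval contained their 19.0%. The PRMT6 interval also lay above all such genes with limits of 500 bp (17.3% to 40.2%, against 16.1%) and 2 kb (16.1% to 39.7%, against 15.3%). None of these differences was tested. Among the 23 bidirectional members without a PRMT6 peak were SDHA, SDHD, NDUFS3, NDUFS6, COX4I1, ATP5F1A, ATP5F1C, UQCRH and UQCRQ.

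**Figure D4:**
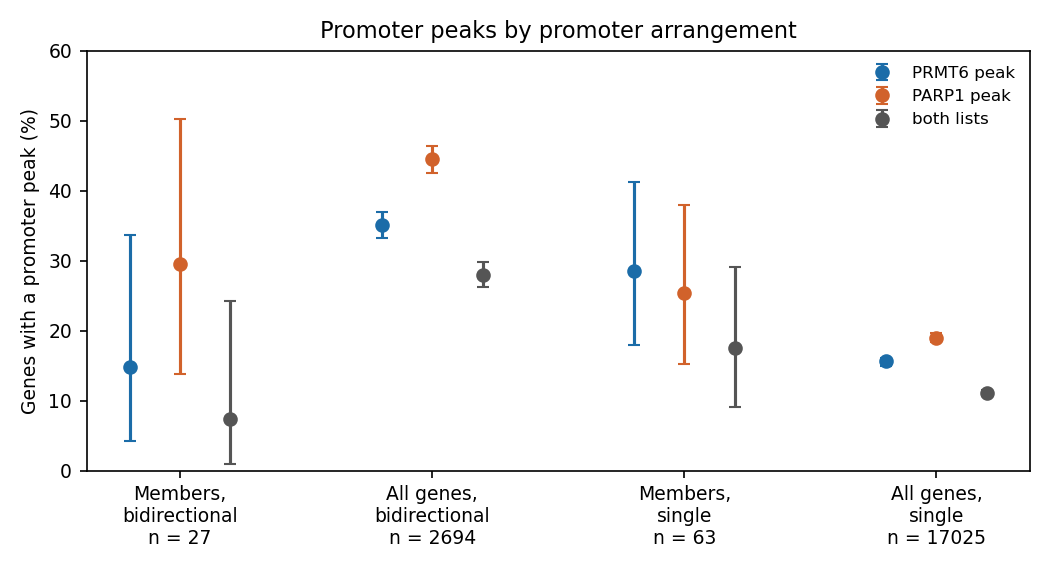
The percentage of genes with a promoter peak (vertical axis) is shown for members and for all protein-coding genes, with bidirectional promoters on the left and single promoters on the right, as points with 95% exact binomial intervals for PRMT6, PARP1 and both lists. The bidirectional members are at 14.8% for PRMT6 and 7.41% for both lists, under the 35.1% and 28.0% of all bidirectional genes, with starts within 1 kb counted. The single members are at 28.6% for PRMT6, over the 15.6% of all single genes.

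The sequence of the promoters was compared next, in windows from 250 bases before to 50 after the start site. A sequence was available for 72 members and 15842 genes. Of the members, 64 (88.9%, 79.3% to 95.1%) had a CpG-rich window (observed over expected CpG of at least 0.6), against 65.6% of all genes. Among CpG-rich promoters alone, PRMT6 peaks were at 29.7% of members (18.9% to 42.4%) and 25.9% of all genes. PARP1 peaks were at 34.4% (22.9% to 47.3%) and 31.4%, and peaks of both at 18.8% (10.1% to 30.5%) and 19.3%. Members and all genes lay slightly closer together here than without this limit, but the change is small beside the intervals. The limit also leaves out genes without a sequence, so it does not isolate CpG content.

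The NRF1 core motif was present in 14 of 72 member promoters (19.4%, 11.1% to 30.5%), against 4.28% of all promoters. The ETS motif was present in 20 (27.8%, 17.9% to 39.6%), against 14.2%, and the YY1 motif in 16 (22.2%, 13.3% to 33.6%), against 6.36%. The GC box (58.3% and 58.3%), CCAAT box (36.1% and 36.4%), E-box (9.72% and 8.82%) and TATA box (9.72% and 9.75%) were about as common in members as in all genes. So 3 of the 7 motifs had an interval in the members above the percentage in all promoters. All 7 motifs were found in a higher percentage of the 31 members with a peak of either list than of the 41 without. The values were 32.3% and 14.6% for YY1, 22.6% and 17.1% for the NRF1 core motif, 32.3% and 24.4% for ETS, 64.5% and 53.7% for the GC box, and 45.2% and 29.3% for the CCAAT box. For the E-box and for the TATA box they were 16.1% and 4.88%, on 7 promoters each. Counted the other way, a peak of either list was found in all genes at 38.2% of promoters with the YY1 motif and 28.3% of those without it. The direction was the same in all genes for every other motif except the TATA box. There a peak was found at 16.7% of promoters with it and 30.3% of those without it. In the members the TATA box values were 71.4% and 40%. Peaks were assigned by the 5′ end of the record, but the sequence came from the RefSeq start site nearest to it. These places differed at ATP5MC2 (5093 bp), NDUFB11 (789 bp) and ATP5PF (599 bp). ATP5MC2, which holds the NRF1 and CCAAT motifs, was counted without a peak, although both lists have peaks within 19 bp of the start site used. The differences between promoters with and without a peak were not tested. A match of letters is a description and not evidence that the factor was bound.

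**Figure D5:**
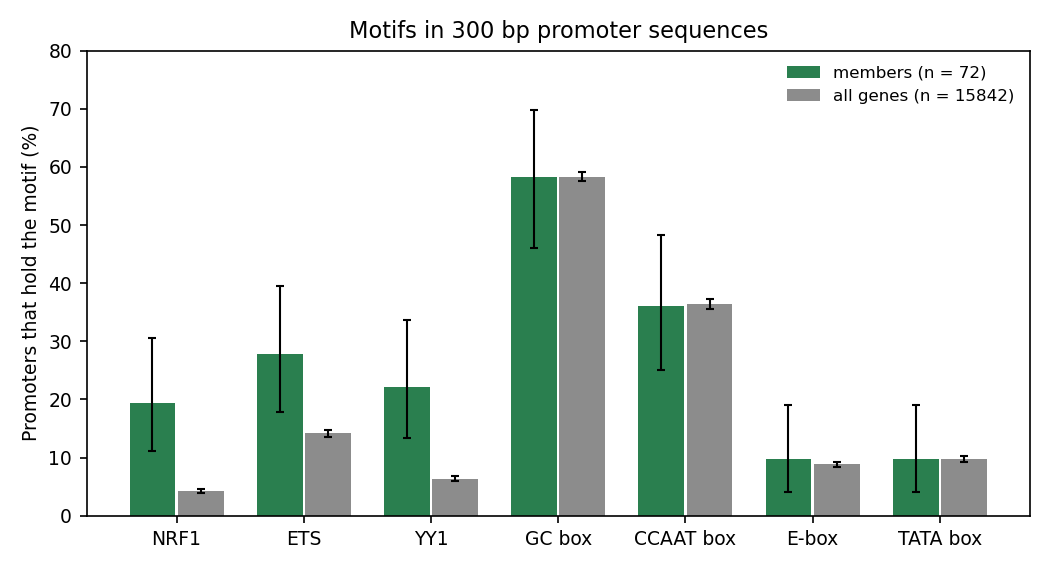
The percentage of promoter sequences that hold each motif (vertical axis) is drawn as bars for the 72 members (green) and all 15842 genes (grey), with 95% exact binomial intervals. NRF1, ETS and YY1 motifs are more frequent in the members, at 19.4%, 27.8% and 22.2%, while the other 4 motifs are at similar levels.

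Genes that build or control the same complexes but are not subunits were counted from 2 further lists. Of 58 assembly factors, 15 had a PRMT6 peak (25.9%, 15.3% to 39.0%), 21 a PARP1 peak (36.2%, 24.0% to 49.9%) and 11 both (19.0%, 9.87% to 31.4%). The PARP1 interval lay above the 22.5% of all genes, which the PRMT6 and joint intervals did not do for theirs. The highest 3 by mean percentile were NDUFAF8 (rank 308 for PRMT6 and 525 for PARP1) and FOXRED1 (1299 and 410), which serve complex I, and COX14 (174 and 810), which serves complex IV. Of 21 transcriptional regulators and genes of mitochondrial DNA upkeep, 8 had a PRMT6 peak (38.1%, 18.1% to 61.6%), 8 a PARP1 peak (the same percentage) and 6 both (28.6%, 11.3% to 52.2%), against 18.3%, 22.5% and 13.4% of all genes. The intervals contained these values. The 6 were SP1 (rank 114 for PRMT6 and 147 for PARP1), YY1 (422 and 1653), ESRRA (411 and 3566), TFB1M (945 and 2175), TFB2M (1139 and 817) and POLG (875 and 1770). NRF1 had a PRMT6 peak alone (rank 5718) and GABPA a PARP1 peak alone (rank 4365), the peak also counted for ATP5PF. TFAM, POLRMT, PPARGC1B, PPRC1, GABPB1 and GABPB2 had none. Of 77 mitochondrial ribosomal protein genes, 28.6% had a PRMT6 peak (18.8% to 40.0%), 36.4% a PARP1 peak (25.7% to 48.1%) and 18.2% both (10.3% to 28.6%). Of 87 cytosolic ribosomal protein genes, 31.0% (21.5% to 41.9%), 44.8% (34.1% to 55.9%) and 23% (14.6% to 33.2%) did. Unlike those of the members, these intervals lay above the 18.3%, 22.5% and 13.4% of all genes, except for both peaks at mitochondrial ribosomal protein genes. They overlapped the intervals of the members, and no difference between the gene groups was tested.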

How the data were processed

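Chromatin of MDA-MB-231 cells was profiled by CUT&Tag, per the paper's methods, with 1 library per antibody. The labels describe ligated libraries instead, so the chemistry is uncertain. The submitters' processing notes list Bowtie 0.12.8, CASAVA 1.4, MACS, MACS2 and the build hg19. The deposited lists hold a chromosome, start, end and score for each peak. The score is the authors' −log10 of a p-value or q-value, by library. Which of these it is, the thresholds and any control library are not given in the sources used here. Read depth is unknown.

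Against the notes, 55 PRMT6 and 61 PARP1 peaks ended beyond GRCh37 chromosome ends, and 30.1% and 29.5% of peaks lay within 1 kb of GRCh38 5′ ends. RefSeq records of GRCh38.p14 were therefore used. Strand came from the RefSeq promoter table, or from the GENCODE gene of the same name on the same chromosome, for 72 and 18 of the members. It was missing for 318 of 20037 protein-coding genes, which were left out. In 70 genes the sources disagreed and the RefSeq strand was kept. Any shared base between a peak and a promoter counted, and percentiles are mid-ranks, with tied scores sharing their average rank. Positions are printed as listed. Python 3.11.15, numpy 2.4.6, pandas 2.3.3, scipy 1.17.1 and matplotlib 3.10.9 were used. bedtools 2.31.1 gave the same genes, and promoter assignment was checked on simulated data. Members, lists and alternatives were chosen with earlier results of these data known. Named in full are SDHA to SDHD, CYC1, CYCS, the best members of each other complex with both peaks (4 in complex I, 3 in others) by mean percentile, and the 3 best with a peak of 1 list alone.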

Additional observations from a re-analysis of the deposited data

Results flagged for a closer look

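The PARP1 list held 8 peaks on mitochondrial DNA, which the comparisons of nuclear genes did not use. This was flagged only because it passed the limit of 3 that a count of 0 allows. No expected number of peaks was derived for mitochondrial DNA, so the count cannot be called high or low. The PRMT6 list held 3. Mitochondrial DNA encodes the remaining subunits of complexes I, III, IV and V in 13 protein-coding genes, of which PARP1 peaks overlapped 9 and PRMT6 peaks 8. The complex I genes ND3 and ND4L lay wholly under peaks of both lists, and CYTB, the complex III gene, was covered over 100% of its length by PRMT6 peaks and over 98.5% by PARP1 peaks. ND2, COX2, ATP8 and ATP6 were under no peak. The share of all mitochondrial DNA under peaks is not given here, so these overlaps cannot be called particular to the genes. Genes such as ND5 and ND6 lie side by side, so their coverage is not independent. A control antibody library was not analysed here.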

How the results depend on the processing

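Of 66 alternatives computed for 19 results, 65 left the value inside the 95% interval of the reported value. The exception was the count of complex I genes with a peak of either list, which fell from 36.8% to 18.4% (7 of 38 genes) in the higher-scoring 50% of each list, where all genes stood at 18.4%. Fewer peaks enter that setting by construction. Staying inside the interval is a weak check, because many intervals are wide (6.76% to 93.2% for complex II) and the alternatives largely reuse the same genes and peaks. It also says nothing on the place of a value against all genes. That place changed for complex V, whose interval lay above all genes with the narrower promoter and in the higher-scoring 50%. It also changed for members with a peak of either list once the tissue-restricted or closely copied members were left out. Over the settings tried, the share of members with a PRMT6 peak ran from 16.7% to 30.0%, with a PARP1 peak from 18.9% to 34.4% and with both from 11.1% to 18.8%. The shares of all genes moved with the same settings, from 13.2% to 25.9%, from 14% to 31.4% and from 8.99% to 19.3%. Alternatives on start sites, readthrough records, the nearest 5′ end and the distance that makes a promoter bidirectional were added after the data were seen. Counting only peaks nearest to the gene's own 5′ end gave 20.0% for PRMT6 and 21.1% for PARP1, against 15.3% and 19.0% of all genes. Members are few, so intervals are wide, and 18 of them had no promoter sequence here. No paired analysis was possible because there was a single library for every antibody.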

Other observations

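Pseudogenes of the same families were looked up as well. Of 185 pseudogene records with a matching symbol, 0 overlapped a PRMT6 peak and 2 overlapped a PARP1 peak, NDUFB8P3 on chromosome 11 (rank 3278) and ATP5MGP3 on chromosome 4 (rank 4456). The share over all pseudogenes is not given here, so these counts cannot be called low or high for pseudogenes. COXFA4, whose older symbol is NDUFA4 and which the current symbols leave out of the members, had a PARP1 promoter peak and no PRMT6 promoter peak. COX7A2L gained a PARP1 promoter peak (42361296 to 42361655 on chromosome 2, rank 4365) at a start site 7740 bp from the 5′ end of its record, 79 bp from that site.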
